A study of Mus musculus with 12 samples.

Results

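Tissue kallikreins of the Klk1 cluster on mouse chromosome 7 were followed in the aging testis. The 8 genes are Klk1, Klk1b8, Klk1b16, Klk1b21, Klk1b22, Klk1b24, Klk1b26 and Klk1b27. They were chosen by name with their read counts at the 4 ages in view, and they are 8 of the 31679 genes and loci, and 17 of the 71967 transcripts, of the deposited table. Their differences between ages are therefore given as a description, without a test. Testes of wild-type C57BL/6 mice, an inbred laboratory strain, were taken at 3, 6, 12 and 18 months after birth (3M, 6M, 12M and 18M), with 3 mice and 3 libraries per age and no treatment or altered allele listed for any group. Total RNA of whole testis was depleted of ribosomal RNA and sequenced from both fragment ends without strand information. In bulk tissue, fewer cells of a type and less RNA per cell cannot be told apart.

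Tissue kallikreins are secreted serine proteases that are made as inactive precursors and cleave other secreted proteins. Klk1 is the true tissue kallikrein, which releases kinins from kininogens, and its mouse paralogs arose by gene duplication and cleave growth factor and hormone precursors. In the mouse testis, Klk1b21, Klk1b24 and Klk1b27 are known as kallikreins of Leydig cells, the interstitial cells that make testosterone. Each gene has 5 exons, and the residues of the catalytic triad are encoded in exons 2, 3 and 5.

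The genes lie head to tail on the plus strand of mm10 and share much of their sequence, so the letters that tell them apart decide how reads are assigned. Over the 28 pairs of the 8 genes, coding sequences were 81.4% to 93.5% identical (median 85.7%). Klk1b21, Klk1b24 and Klk1b27 formed the closest trio, with 92.6% to 93.5% coding identity. Exon 4, which has 137 bases in every member and is coding throughout, is shown for the genes whose levels differed most between ages and for Klk1b26 and Klk1b8, whose levels overlapped between 3M and 18M. Sequences are from GENCODE vM21 transcripts (GRCm38, the mm10 assembly), 5′ to 3′, and capitals mark the bases that differ from Klk1b24 at the same position.

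Klk1b24 exon 4: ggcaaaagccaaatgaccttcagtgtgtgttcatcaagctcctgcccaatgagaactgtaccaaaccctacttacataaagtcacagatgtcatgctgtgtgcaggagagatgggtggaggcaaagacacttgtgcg
Klk1b21 exon 4: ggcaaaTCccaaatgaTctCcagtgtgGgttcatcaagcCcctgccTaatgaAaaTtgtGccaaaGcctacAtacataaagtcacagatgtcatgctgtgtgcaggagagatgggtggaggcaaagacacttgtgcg
Klk1b27 exon 4: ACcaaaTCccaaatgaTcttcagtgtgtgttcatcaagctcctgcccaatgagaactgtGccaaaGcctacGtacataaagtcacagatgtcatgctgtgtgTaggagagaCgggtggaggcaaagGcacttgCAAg
Klk1b22 exon 4: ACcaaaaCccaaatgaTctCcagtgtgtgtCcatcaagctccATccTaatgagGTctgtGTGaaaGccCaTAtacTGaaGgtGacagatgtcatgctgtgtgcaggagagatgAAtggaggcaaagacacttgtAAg
Klk1b26 exon 4: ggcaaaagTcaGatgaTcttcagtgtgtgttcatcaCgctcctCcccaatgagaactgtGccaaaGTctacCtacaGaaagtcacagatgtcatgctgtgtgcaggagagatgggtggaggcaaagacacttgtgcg
Klk1b8 exon 4: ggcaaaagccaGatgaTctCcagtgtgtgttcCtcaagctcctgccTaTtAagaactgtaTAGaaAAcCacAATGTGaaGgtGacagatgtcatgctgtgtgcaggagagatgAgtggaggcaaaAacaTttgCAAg

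These exons lie at chr7:44191744-44191880 (Klk1b24), chr7:44105872-44106008 (Klk1b21), chr7:44056005-44056141 (Klk1b27), chr7:44116209-44116345 (Klk1b22), chr7:44016259-44016395 (Klk1b26) and chr7:43954234-43954370 (Klk1b8). Klk1b21 differed from Klk1b24 at 12 of the 137 bases, Klk1b27 at 14, Klk1b22 at 26, Klk1b26 at 10 and Klk1b8 at 27. Of all stretches of the length of a read in a member transcript, 0% (Klk1b22) to 5.74% (Klk1, shared with Klk1b11 and Klk1b5) occurred letter for letter in another gene of the cluster. Klk1b21 shared 3.24% of its stretches with Klk1b24 and Klk1b27. By its own letters, a read from such a stretch cannot be assigned to 1 gene. Whether the read of the other fragment end would place it was not examined. No annotated exon of the opposite strand overlapped an exon of a member, although the opposite-strand gene Gm44756 overlaps the span of Klk1b8 and Gm10109 that of Klk1.

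The deposited counts summed to between 50924104 and 71803379 reads per library. For each gene, the reads of its transcripts were added up. Levels of 1 gene across libraries are given as CPM (read counts as a proportion of the library total, scaled by the TMM method of edgeR, whose factors lay between 0.983 and 1.02). The testis origin was checked on markers: spermatid genes summed to 11297 to 16964 CPM in the 12 libraries. Of the epididymis, accessory gland and salivary lists, tissues in which kallikrein-like proteases or secretory proteins are abundant, Lcn5, Pbsn and Smr2 were at 0 in every library. Other genes of these lists had reads, among them Svs5 (912 in the 12 libraries), Svs4 (195), Crisp1 (106) and Defb20 (97). The lists summed to 4.07 to 4.99 CPM for the epididymis (7 genes, mostly Rnase10), 1.39 to 2.24 CPM for the accessory glands (6 genes) and 6.44 to 11.8 CPM for the salivary gland (4 of 5 genes in the table, nearly all Amy1). The salivary sum was 9.68 to 11.2 CPM in the 3M mice and 6.44 to 9.04 CPM in the 18M mice, without overlap, and Amy1 was at 10.1 ± 0.849 and 7.29 ± 1.34 CPM (adjusted p = 0.138 along age, edgeR). The part of this list in the difference of the kallikreins was not tested.

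Of the 8 genes, Klk1b21, Klk1b22, Klk1b24 and Klk1b27 were lower at each step from 3M to 18M, while 3M and 18M mice overlapped in Klk1, Klk1b8 and Klk1b26, and Klk1b16 lay in between. Summed, the first group had 50.6 CPM in the 3M mice, intermediate values of 26.6 (6M) and 8.44 (12M), and 4.70 CPM in the 18M mice, 10.8-fold less than in the youngest. The summed level of Klk1, Klk1b8 and Klk1b26 was 59.8 CPM at 3M and 61.9 at 18M. All 8 genes together had 112.1 ± 9.94 CPM in the 3M mice (SD, n = 3, as for all values after ± unless an SE is named). The sum was 85.45 ± 11.3 CPM in the 6M mice, 70.35 ± 12.1 in the 12M mice and 67.3 ± 5.19 in the 18M mice.

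**Figure D1:**
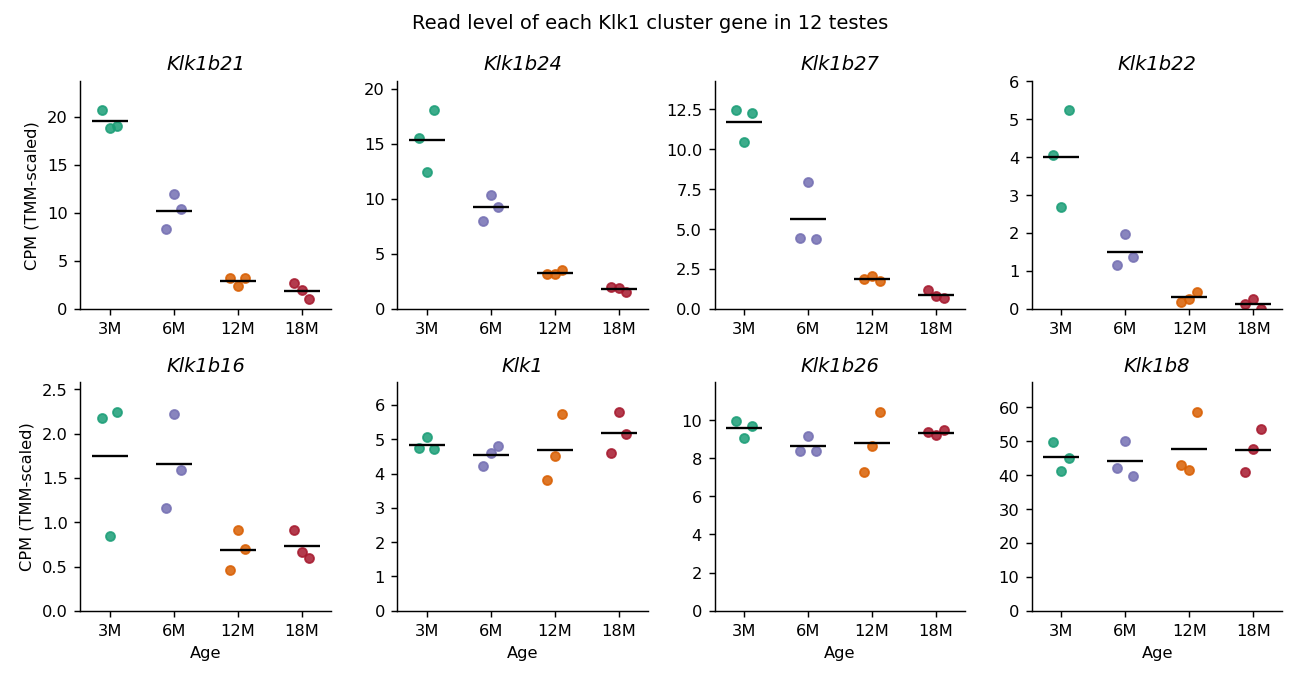
Read level of the 8 genes in CPM (y axis, from 0) in the 3 testes of each age (points) with the mean of the age (line). Klk1b21, Klk1b24, Klk1b27 and Klk1b22 are lower at every later age, with all mice of 18M below all mice of 3M, whereas in Klk1, Klk1b26 and Klk1b8 the mice of 3M and 18M overlap.

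Klk1b21 was the most abundant of the declining genes at 3M. Its CPM was 20.7, 18.9 and 19.1 in the 3M mice, 8.36, 12.0 and 10.4 at 6M, 3.24, 2.41 and 3.18 at 12M, and 2.72, 1.92 and 1.03 at 18M. All 6M mice were below all 3M mice and all 12M mice below all 6M mice, while 12M and 18M overlapped. The mean at 18M was 10.3-fold lower than at 3M, with a log2 difference of -3.37 ± 0.41 (SE from the mice). These values rest on 3257 reads in the 3M libraries together and on 329 in the 18M libraries.

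Klk1b24 showed no overlap between any neighboring ages. Its CPM was 15.5, 12.5 and 18.1 at 3M, 8.02, 10.4 and 9.27 at 6M, 3.19, 3.18 and 3.54 at 12M, and 1.96, 1.92 and 1.52 at 18M. The difference was 8.54-fold from 3M to 18M (log2 -3.09, SE 0.19), with the largest step, 2.79-fold, between 6M and 12M. At 12M the SD of the 3 mice was 0.207 CPM, and no mouse stood apart. In addition, 3 assembled transcripts counted under the next gene, Klk1b3, hold exons of Klk1b24 as well as of Klk1b3, with 0 reads at 3M and 371 at 18M. With all of their reads added to Klk1b24, an alternative chosen after seeing the data, its mean was 15.4 ± 2.79 CPM at 3M and 3.87 ± 1.3 at 18M, a 3.97-fold difference (log2 -1.99), and the groups still did not overlap (12.5 CPM or more against 5.28 or less).

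Klk1b27, a gene known to respond to testosterone in the testis, was likewise separated at every step. Its CPM was 12.4, 10.4 and 12.2 at 3M, 4.46, 7.96 and 4.41 at 6M, 1.88, 2.04 and 1.75 at 12M, and 1.20, 0.778 and 0.684 at 18M. The 18M mean was 13.2-fold lower than the 3M mean (log2 -3.72, SE 0.26), and every step between neighboring ages was 2.09-fold or more. At 6M, mouse 2 stood above the other mice of its age, and the same mouse had the highest 6M value of Klk1b21, Klk1b22, Klk1b24 and Klk1b16.

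Klk1b22, the EGF-binding protein type A, which processes the epidermal growth factor precursor, had the largest ratio and the fewest reads of the declining genes. It had 213, 153 and 301 reads at 3M, 59, 99 and 78 at 6M, 11, 14 and 29 at 12M, and 7, 14 and 0 at 18M. The mean was 3.99 ± 1.27 CPM at 3M and 0.130 ± 0.133 at 18M, a 30.8-fold difference (log2 -4.94, SE 0.62 from the libraries with reads). The 0 reads of mouse 3 at 18M allow a level of up to 0.0419 CPM (3 reads), which covers counting error only. Without mouse 2 of 18M, the log2 difference was -6.01, so its size at 18M was set by few reads, and 12M and 18M overlapped.

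Klk1b16, known as gamma-renin, had few reads at every age. Its reads were 114, 48 and 129 at 3M, 59, 112 and 91 at 6M, 27, 49 and 44 at 12M, and 52, 35 and 43 at 18M. The mean went from 1.75 ± 0.787 CPM at 3M to 0.727 ± 0.168 at 18M (log2 -1.27, SE 0.50). Mouse 2 of 3M lay within the range of 18M, so the youngest and oldest groups overlapped, while all 12M mice were below all 6M mice.

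The other 3 genes differed between 3M and 18M by less than the spread of the mice. Klk1b8, which had the most reads of the 8 genes, with its coverage mainly in exons 4 and 5, had 49.7, 41.3 and 45.1 CPM in the 3M mice and 40.9, 47.7 and 53.6 in the 18M mice. Its means of 6M and 12M were 44.0 ± 5.38 and 47.8 ± 9.36 CPM. Klk1b26, the prorenin-converting enzyme, was at 9.56 ± 0.467 CPM at 3M and 9.34 ± 0.117 at 18M (log2 -0.03, SE 0.04), and with reference transcripts alone the log2 difference was -0.45. Klk1 was at 4.84 ± 0.20 CPM at 3M and 5.17 ± 0.602 at 18M (log2 0.10, SE 0.10), and with reference transcripts alone the log2 difference was -0.73. In each of these genes the mice of neighboring ages overlapped, as did those of 3M and 18M. In Klk1b26 all 18M mice (9.22 CPM or more) were above all 6M mice (9.17 or less).

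The make-up of the kallikrein reads differed by age. Klk1b8 held 40.5% ± 1.51 of the reads of the 8 genes in the 3M mice and 70.2% ± 4.09 in the 18M mice, with 51.6% and 67.7% at the ages between. Klk1b21 went from 17.5% ± 1.17 at 3M to 2.88% ± 1.48 at 18M, and Klk1b27 from 10.4% ± 0.0739 to 1.34% ± 0.527. These shares add up to the whole within a library, so the larger share of Klk1b8 went with a CPM that overlapped between the ages.

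Levels were compared between genes per length, as FPKM summed over the transcripts of a gene. At 3M the order was Klk1b8 (43.3 ± 4.4 FPKM), Klk1b21 (19.9 ± 1.1), Klk1b24 (16.4 ± 2.9), Klk1b27 (12.3 ± 1.1), Klk1b26 (5.92 ± 0.63), Klk1b22 (4.36 ± 1.37), Klk1 (2.87 ± 0.03) and Klk1b16 (1.89 ± 0.86). In that order, Klk1b21 and Klk1b24, and Klk1b26 and Klk1b22, overlapped between mice. At 18M, Klk1b8 (45.3 ± 6.8 FPKM) was followed by Klk1b26 (5.38 ± 0.15) and then by Klk1 (2.72 ± 0.14), Klk1b21 (1.93 ± 0.90) and Klk1b24 (1.92 ± 0.26), where each of the last 3 overlapped with its neighbor. Klk1b27 (0.927 ± 0.298 FPKM) and Klk1b16 (0.781 ± 0.189) overlapped as well, and Klk1b22 (0.137 ± 0.146) was the lowest. The reads of Klk1b8 and Klk1b26 lay mainly on exons 4 and 5, and those of Klk1 included reads of Klk1b4 and Klk1b5. Over exons 1 to 3 at 3M, the mean coverage per base was 12.2 ± 3.28 in Klk1b8 and 118 ± 5.42 in Klk1b21. The order by FPKM is therefore not an order of full-length transcripts.

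For the size of the background, all genes with enough reads were fitted with edgeR's quasi-likelihood test and Benjamini-Hochberg adjustment. Along age in months, 29 of 25348 genes were called falling (0.114%) and 16 rising (0.0631%) at an adjusted p-value of at most 0.05, and 4 of the 8 kallikreins were among the falling ones: Klk1b21, Klk1b22, Klk1b24 and Klk1b27. Between 3M and 18M, where a log2 fold change of at least 1 in either direction was also required, 6 of 24744 genes were called falling (0.0242%) and 7 rising (0.0283%), and Klk1b21, Klk1b24 and Klk1b27 were 3 of the 6. All 18M mice were below all 3M mice in 4 of the 8 genes and in 9.86% of all genes tested, all 18M mice were above all 3M mice in 0 of the 8 and in 9.44%, and mean levels were lower at each step in 4 of the 8 and in 6.88%. Since the 8 genes were chosen with these counts in view, nothing is read from their calls. Their median fitted log2 difference between 3M and 18M was -2.18, beside 0.0064 over all genes tested. The call of Klk1b21 between 3M and 18M was lost without mouse 2 of 18M, without any 1 mouse of 3M, without a filter on low counts and with reference transcripts alone, and its call along age was lost with reference transcripts alone. DESeq2 also called Klk1b22 between these ages and Klk1b16 along age.

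The declining members were neighbors on the chromosome. In the order of their starts, Klk1b27 (chr7:44052290-44056711), Klk1b21 (chr7:44102292-44106583), Klk1b22 (chr7:44112673-44116922), Klk1b16 (chr7:44137290-44141610) and Klk1b24 (chr7:44188236-44192451) followed each other without another gene of the deposited table's Klk1 cluster between them. Klk1b8 (chr7:43950666-43954944) and Klk1b26 (chr7:44012678-44016969) lay before this run and Klk1 (chr7:44225360-44229622) behind it. Of the nearest genes that are no members and had 100 or more reads, Klk1b9, before Klk1b26, was at 10.7 ± 1.09 CPM at 3M and 12.3 ± 0.0403 at 18M. Klk1b3, behind Klk1b24, was at 2.29 ± 0.126 and 3.30 ± 0.0864 CPM, with the joined transcripts counted.

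**Figure D2:**
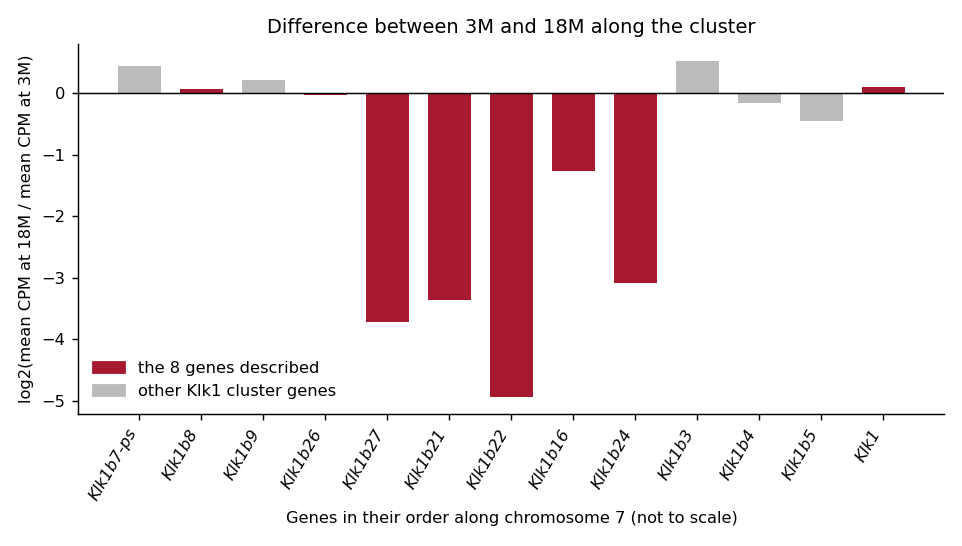
Log2 ratio of mean CPM at 18M to mean CPM at 3M (y axis) for the Klk1 cluster genes with 100 or more reads in the 12 libraries, in their order along the chromosome (x axis, not to scale). The 5 lowest bars, from -1.27 for Klk1b16 to -4.94 for Klk1b22, stand next to each other, and the other genes shown lie between -0.45 and 0.53. Klk1b1, which lies apart from them between Klk1b8 and Klk1b9, had fewer than 100 reads (log2 -2.89) and is not shown. The bars of Klk1b4 and Klk1b5 leave out reads of a transcript counted under Klk1 that also runs over their exons.

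Of 20 other genes of the cluster on a list, 7 are in the deposited table and 6 had enough reads for the test along age, and none was called. Klk1b3, the gamma subunit of nerve growth factor, had an adjusted p-value of 0.156 along age (edgeR) and all 18M mice above all 3M mice. Klk1b9, an EGF-binding protein, had an adjusted p-value of 0.352 and also no overlap. Klk1b4, the alpha subunit of nerve growth factor, was at 0.470 ± 0.138 CPM at 3M and 0.422 ± 0.184 at 18M, and Klk1b5 at 1.11 ± 0.18 and 0.813 ± 0.437. Both levels leave out the reads of the assembled transcript MSTRG.18234.2, which is counted under Klk1 but also runs over their exons. Mean coverage per base of Klk1b5 was 26.9 ± 2.05 at 3M and 30.6 ± 7.1 at 18M in exon 4. In exon 5 it was 14.5 ± 1.06 and 11.8 ± 2.06. The pseudogene Klk1b7-ps was at 9.60 ± 3.93 CPM at 3M and 13 ± 1.79 at 18M. Klk1b1 and Klk1b11 had 78 and 41 reads in all 12 libraries together. Klk1b1, between Klk1b8 and Klk1b9 on the chromosome, also had lower means at each step, on few reads. Its means were 0.218 ± 0.12 CPM at 3M (36 reads), 0.131 at 6M, 0.0905 at 12M and 0.0294 ± 0.0509 at 18M (5 reads). The log2 difference was -2.89, the mice of 3M and 18M overlapped, and the adjusted p-value along age was 0.323 (edgeR).

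Among 36 genes and loci within 200 kb of the members' span, 22 could be tested along age and 20 between 3M and 18M, and none was called by edgeR; 4 and 2 of them had p of at most 0.05 before adjustment, beside 15.3% and 12% of all genes tested. DESeq2 called 1 of them along age, the assembled locus MSTRG.18224, and none between 3M and 18M. The neighbors with the highest levels were 1700028J19Rik, at 340.0 ± 7.76 CPM at 3M and 358 ± 14.4 at 18M, the locus MSTRG.18241, at 45.6 ± 5.3 and 50.9 ± 9.5, and 2410002F23Rik, at 35.4 ± 0.53 and 33.8 ± 2.29. Classical kallikreins beyond the Klk1 cluster were nearly silent in the testis: of Klk4 to Klk15, only Klk15 had enough reads for the test (0.385 ± 0.0781 CPM at 3M and 0.510 ± 0.0841 at 18M, adjusted p = 0.648 along age, edgeR). Klk4, Klk6, Klk7, Klk8, Klk9, Klk12, Klk13 and Klk14 had 2 to 40 reads in all, and Klk5, Klk10 and Klk11 had none. Plasma kallikrein Klkb1, which is encoded outside this cluster, was at 11.3 ± 0.401 CPM at 3M and 11.4 ± 0.626 at 18M.

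Exon coverage separated the members into genes read along their whole length and genes read mainly at their end. Coverage was taken from the deposited assemblies as the mean depth per base over each exon of the RefSeq transcript, scaled to a common library depth, and summed over all assembled transcripts of the plus strand. In Klk1b24 (NM_010643), mean coverage at 3M was 37.4 in exon 1, 70.1 in exon 2, 127.7 in exon 3, 122 in exon 4 and 45.0 in exon 5. At 18M it was 4.45, 7.18, 14.1, 16.8 and 7.87 in the same exons. Every exon was lower at 18M, and exons 1 to 3 together were 9.14-fold lower.

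In Klk1b8 (NM_008457), by contrast, exons 4 and 5 held a median of 97.6% of the covered bases over the 12 libraries (88.4% to 98.6%), although they make up 39.8% of the length. Mean coverage at 3M was 2.15 in exon 1, 11.5 in exon 2, 15.2 in exon 3, 974 in exon 4 and 432 in exon 5. At 18M it was 0.698, 10.7, 31.0, 968 and 464. The start exon of the RefSeq transcript, chr7:43950666-43950736, was thus nearly without reads at all ages, and so was the start exon that the assembler used instead, chr7:43947408-43947620, at 2.31 ± 0.88 at 3M and 2.73 ± 1.13 at 18M. Reads counted for Klk1b8 thus came mainly from its final exons, and how much of a full-length coding transcript was present was not measured.

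Klk1b26 (NM_010644) was of the same kind, with a median of 87.5% of covered bases in exons 4 and 5 (84.6% to 91.1%) and 39.0% of the length. Its exon 4 was at 127 ± 12.0 at 3M and 139 ± 6.38 at 18M, whereas exon 2, which holds the codon of the catalytic histidine, was at 5.37, 4.67 and 5.64 in the 3M mice and at 1.87, 2.92 and 2.15 in the 18M mice. All 18M mice were below all 3M mice in exon 2 and overlapped with them in exon 4. In the declining genes the same share was 33.3% for Klk1b21, 37.8% for Klk1b24, 33.5% for Klk1b27 and 40.5% for Klk1b22 in the median over the libraries, beside 37.7% to 39.7% of their length. With its few reads, Klk1b22 ranged from 4.94% to 63.5%. The median share was 60.3% in Klk1 and 51.1% in Klk1b16. Among genes that are no members it was 74.6% in Klk1b9, 89.7% in Klk1b3 and 81.8% in Klk1b4, but 43.4% in Klk1b5, beside 39.7% of its length.

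Klk1b16 (NM_008454) differed between its ends. Exon 1 was at 5.87, 4.74 and 6.42 in the 3M mice and at 1.09, 0 and 0.902 in the 18M mice, without overlap. Exon 4 was at 23.7, 7.30 and 17.4 in the 3M mice and at 9.20, 8.58 and 8.10 in the 18M mice, with overlap. Over exons 1 to 3 together, Klk1b16 was 3.40-fold lower at 18M than at 3M (log2 -1.77), and the groups did not overlap, in contrast to its summed reads.

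When exons 1 to 3 alone were used, a choice made after seeing the coverage, the log2 differences of the declining genes were similar, at -3.37 for Klk1b21, -4.60 for Klk1b22, -3.19 for Klk1b24 and -3.73 for Klk1b27. Klk1b26 was at a coverage of 11.9 ± 0.685 at 3M and 8.43 ± 1.92 at 18M (log2 -0.49) and Klk1 at 9.91 ± 0.858 and 7.27 ± 0.512 (log2 -0.45), each with all 18M mice below all 3M mice. Klk1b8 was at 12.2 ± 3.28 and 20.6 ± 21.4 with overlap, where mouse 3 of 18M alone had an exon 3 coverage of 76.8. Over these exons Klk1b8 was at 3M below Klk1b21 (118 ± 5.42), Klk1b24 (96.6 ± 19.6), Klk1b27 (71 ± 8) and Klk1b22 (23.2 ± 7.13).

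**Figure D3:**
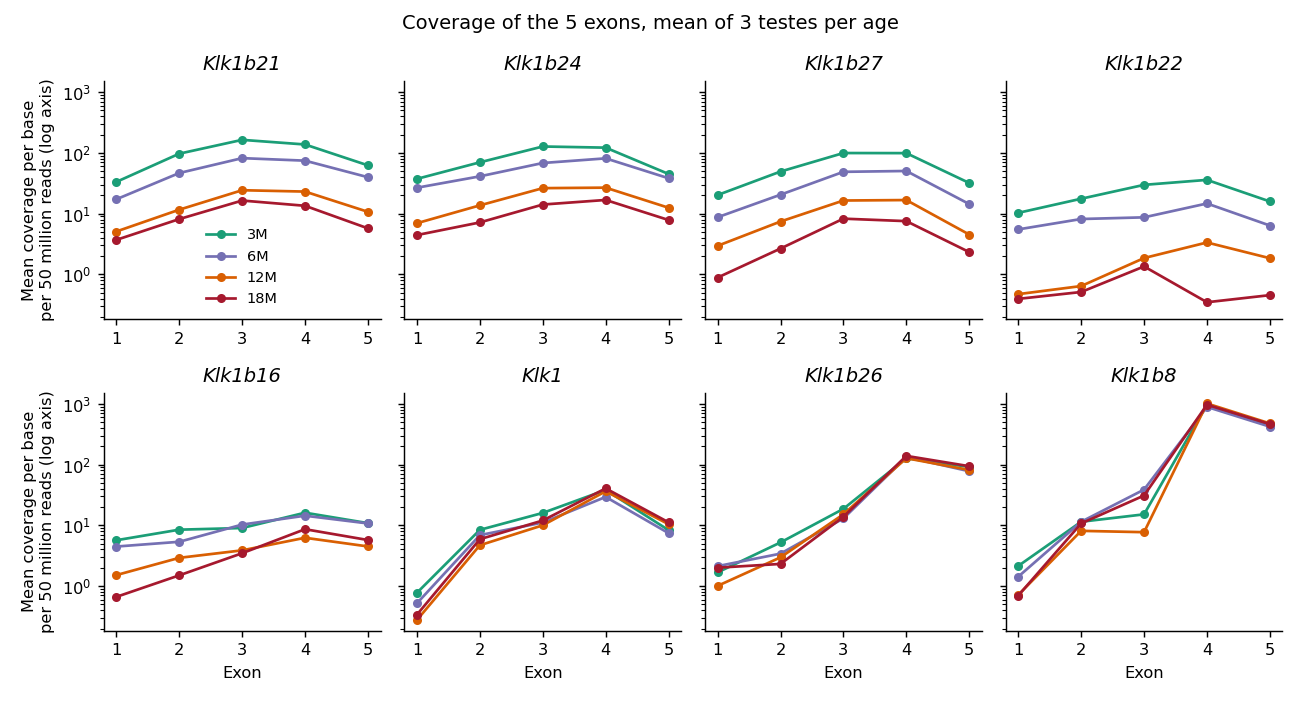
Mean coverage per base at a common library depth (y axis, log axis) of exons 1 to 5 (x axis), as the mean of the 3 testes of each age (colored lines). In Klk1b21, Klk1b24, Klk1b27 and Klk1b22 the lines of the ages lie in the order of age, while in Klk1b26 and Klk1b8 exons 4 and 5 stand far above exon 1 and the ages lie on top of each other there.

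The transcripts behind the counts show which of the levels rest on the reference transcript. Klk1b16, Klk1b22, Klk1b24 and Klk1b27 had a single transcript each, which matched RefSeq. In Klk1b21 the RefSeq transcript NM_010642 held 81.7% of the reads and the assembled MSTRG.18230.1 the rest, and the division varied between mice, with 407 of 1073 reads on the assembled transcript in mouse 2 of 3M and 68 of 1098 in mouse 3.

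In Klk1b8, NM_008457 held 4.23% of the reads. It had 417, 96 and 443 reads at 3M, 2, 375 and 1 at 6M, 1, 0 and 1 at 12M, and 1, 2 and 1 at 18M. The assembled transcripts MSTRG.18226.1 and MSTRG.18226.2, which use the upstream start exon, held 68.0% and 24.5%, and the sum over the 4 transcripts was 2608, 2351 and 2597 at 3M and 2318, 2514 and 3839 at 18M. The RefSeq transcript alone was therefore lower at 18M (log2 -7.96) while the gene was not, and exons 4 and 5 are shared by all of these transcripts. In Klk1b26, NM_010644 held 1.79% of the reads and MSTRG.18228.3 70.4%, an assembled transcript without RefSeq exon 1, whose first exon of 1872 bases runs unspliced from before exon 2 to the end of exon 3. In Klk1, MSTRG.18234.2 held 81.1% of the reads. Its 10 exons begin at chr7:44210484 and run over exons of Klk1b4 and Klk1b5 before those of Klk1, so that the level of Klk1 includes reads of both neighbors. The 3 transcripts that join exons of Klk1b24 to those of Klk1b3 held 49.9% of the reads of Klk1b3. The level of Klk1b24 leaves these reads out, whereas its exon coverage includes them. Exon 5 of Klk1b24 is in none of the 3 transcripts, and its coverage was 38.05 to 50.3 in the 3M mice and 6.39 to 8.87 in the 18M mice.

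The levels of the declining genes went together across the 12 libraries. Pearson's r of log2(CPM + 1) was 0.960 to 0.985 for the 6 pairs among Klk1b21, Klk1b22, Klk1b24 and Klk1b27, and Spearman's rho was 0.909 to 0.979. For the pairs of Klk1b16 with these genes r was 0.783 to 0.824. Among Klk1, Klk1b8 and Klk1b26 it was 0.564 to 0.733, and between these and the declining genes it was -0.222 to 0.28. The 12 points share their age groups and libraries, so these values describe the pattern and carry no p-value.

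Upstream sequence was compared between genes with like and unlike patterns of levels. Shown are the 120 bases before the annotated start of the 3 closest genes, of Klk1b22, which had the same pattern of levels, and of Klk1b8, which had not, from RefSeq (GRCm38.p6, plus strand, 5′ to 3′). Capitals mark the TATA-like letters TTTAAA, searched on the plus strand only and chosen after the sequences were seen.

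Klk1b24 upstream: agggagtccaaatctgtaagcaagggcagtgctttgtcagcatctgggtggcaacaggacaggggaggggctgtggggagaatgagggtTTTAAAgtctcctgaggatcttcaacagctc
Klk1b21 upstream: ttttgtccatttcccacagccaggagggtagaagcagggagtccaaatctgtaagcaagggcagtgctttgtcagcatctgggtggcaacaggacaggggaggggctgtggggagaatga
Klk1b27 upstream: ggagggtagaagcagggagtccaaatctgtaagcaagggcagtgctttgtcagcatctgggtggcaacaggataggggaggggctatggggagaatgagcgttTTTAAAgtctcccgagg
Klk1b22 upstream: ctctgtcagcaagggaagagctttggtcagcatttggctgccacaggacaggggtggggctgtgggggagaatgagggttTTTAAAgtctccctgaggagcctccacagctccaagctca
Klk1b8 upstream: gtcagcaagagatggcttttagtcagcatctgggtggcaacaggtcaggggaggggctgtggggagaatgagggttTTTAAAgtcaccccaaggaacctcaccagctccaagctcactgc

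The windows are chr7:44188116-44188235 for Klk1b24, chr7:44102172-44102291 for Klk1b21, chr7:44052170-44052289 for Klk1b27, chr7:44112553-44112672 for Klk1b22 and chr7:43950546-43950665 for Klk1b8. All 8 members had an entry in the table of promoters. TTTAAA was found in 6 of the 8 windows, and in 5.2% of the 32851 promoters of the same length. The letters were chosen from these sequences, and the windows belong to duplicated genes and are not independent. Nothing is therefore read from this contrast. The windows of Klk1 and Klk1b21 held none, and their annotated exon 1 is longer (165 and 118 bases) than that of Klk1b24 (83 bases). The Klk1b21 window ends at ggggagaatga, letters that in Klk1b24 stand directly before gggtTTTAAA. Bases inside exon 1 were not searched for TTTAAA, so whether Klk1b21 lacks it at the matching place was not tested.

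Over 250 upstream bases, Klk1b21 and Klk1b24 were 97.7% identical over 215 aligned bases, Klk1b21 and Klk1b27 93.0% over 228, and Klk1b24 and Klk1b27 90.0% over 241. The pair Klk1b16 and Klk1b26 had 90.7%, and the other 24 pairs had 72.6% to 84.7%. Klk1b22 was 76.2% to 78.7% identical to the 3 genes and 81.9% identical to Klk1b8. The r of Klk1b16 and Klk1b26 was 0.295. Most reads of Klk1b8, Klk1b26 and Klk1 lay on assembled transcripts that do not begin at the RefSeq start. Whether the level of any of the genes is tied to its upstream sequence was not tested.

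**Figure D4:**
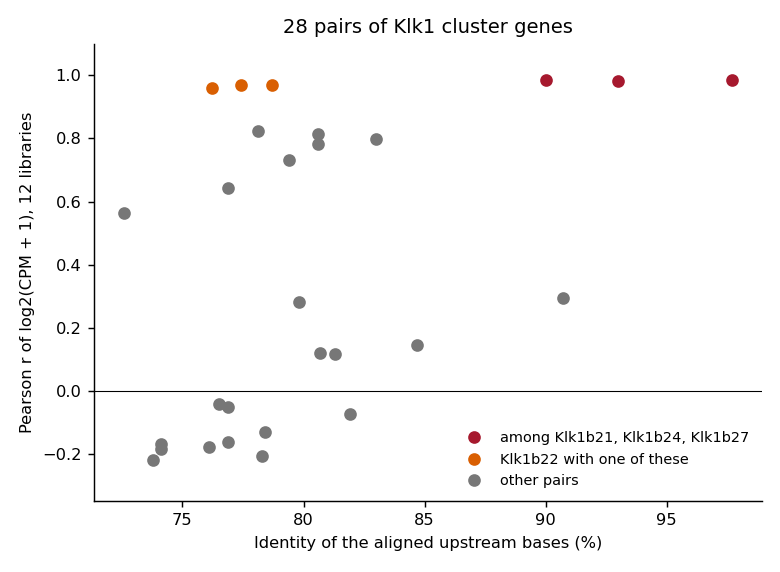
Identity of the aligned upstream bases in percent (x axis) against Pearson's r of log2(CPM + 1) over the 12 libraries (y axis) for the 28 pairs of the 8 genes. The 3 pairs among Klk1b21, Klk1b24 and Klk1b27 lie at 90.0% or more and r of 0.983 to 0.985, and the 3 pairs of Klk1b22 with them lie at an r of 0.960 to 0.969 with 76.2% to 78.7% identity.

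Other motifs were searched on both strands from 250 bases before to 50 bases after the start. The androgen response element (AGAACA, 3 free bases, TGTTCT), the letters TATAAA and the cAMP response element TGACGTCA were in none of the 8 genes, and in 0.00913%, 13.6% and 1.79% of all promoters. The half-site TGTTCT was in Klk1b24 only among the 8 genes (19% of all promoters). It overlaps with the androgen response element, of which it is part. The SF-1 type letters CAAGGTCA were in Klk1b21 and Klk1 (1.56%). A match or its absence describes these letters in this window and nothing about the binding of a factor.

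Leydig cell genes were measured beside the kallikreins that are known from these cells. Of 14 genes of Leydig cells and steroid synthesis, all were tested along age, 2 were called falling by edgeR, beside 0.114% of all genes, and none rising. Cyp17a1, which makes androgens from pregnenolone and progesterone, was at 140, 188 and 126 CPM at 3M, 121, 129 and 134 at 6M, 84.2, 78.0 and 78.9 at 12M, and 63.6, 51.4 and 52.1 at 18M, and fell with age (slope -0.10 log2 per month, adjusted p = 0.000126). Cyp11a1, the cholesterol side-chain cleavage enzyme, was at 67.7 ± 13.1 CPM at 3M and 23.3 ± 8.75 at 18M and fell as well (slope -0.11, adjusted p = 0.00532). In both genes all 18M mice were below all 3M mice.

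The other Leydig genes did not pass the test along age. Insl3, the Leydig cell hormone, was at 566 ± 35.5 CPM at 3M and 454 ± 74.1 at 18M (adjusted p = 0.290, edgeR), Star, the cholesterol carrier of mitochondria, at 38.2 ± 12.7 and 21.5 ± 2.5 (adjusted p = 0.108), and Lhcgr, the receptor for luteinizing hormone, at 2.79 ± 1.24 and 1.16 ± 0.0586 (adjusted p = 0.0564). Hsd3b1, an enzyme of steroid synthesis and 1 of the 7 Leydig markers, was at 33.6 ± 3.7 CPM at 3M and 40.7 ± 12.7 at 18M, Fdx1, an electron carrier of steroid synthesis, at 28.3 ± 3.22 and 33 ± 11.2, and Scarb1, a lipoprotein receptor, at 112 ± 22.9 and 109 ± 26.5. Between 3M and 18M none of the 14 was called, and 10 had p of at most 0.05 before adjustment, beside 12% of all genes tested. DESeq2 called Cyp17a1, Cyp11a1 and Lhcgr between these ages, and along age also Hsd17b3, Hsd3b6, Lhcgr and Star. In 9 of the 14 genes all 18M mice were below all 3M mice, beside 9.86% of all genes. The median fitted log2 difference of the list was -0.28, beside 0.0064 for all genes.

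The 7 Leydig markers among them summed to 870 to 1046.5 CPM in the 3M mice and to 552 to 760 CPM in the 18M mice. Most of this sum was Insl3, with a mean of 566 of 938 CPM at 3M and 454 of 637 at 18M. Klk1b21, Klk1b22, Klk1b24 and Klk1b27 together came to 4.25% to 6.09% of the marker sum in the 3M mice and 1.93% to 3.55% in the 6M mice. They came to 1.13% to 1.43% in the 12M mice and 0.586% to 0.816% in the 18M mice, with no overlap between neighboring ages. Relative to Cyp17a1 they came to 23.6% to 43.2% in the 3M mice and 18.1% to 25% in the 6M mice, which overlapped, and to 10.1% to 11.3% in the 12M mice and 6.21% to 9.50% in the 18M mice, which did not overlap with the younger ages. The part of the Leydig markers in the difference of the kallikreins was not tested. Over the 12 libraries, the sum of these 4 kallikreins had an r of 0.945 with Cyp17a1, 0.935 with Cyp11a1 and 0.875 with Hsd17b3. With Hsd3b6 r was 0.79, with Lhcgr 0.774, with Por 0.717, with Nr5a1 0.673 and with Star 0.667. It was 0.61 with Insl3, 0.607 with Fdxr, 0.486 with Cyb5a, 0.164 with Scarb1, 0.0897 with Hsd3b1 and -0.267 with Fdx1.

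**Figure D5:**
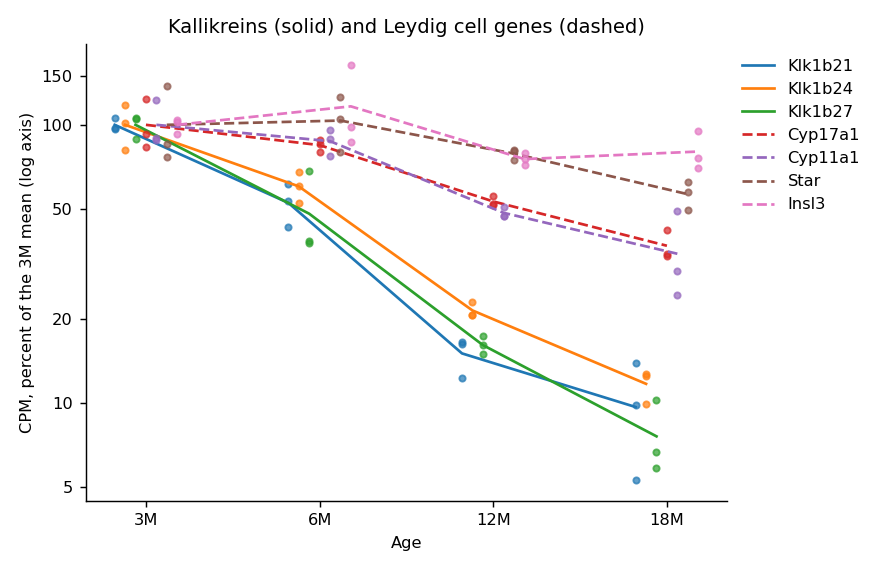
CPM in percent of the 3M mean (y axis, log axis) at the 4 ages (x axis) for 3 kallikreins (solid lines, means) and 4 Leydig cell genes (dashed lines, means), with each testis as a point shifted sideways for legibility. At 18M the kallikreins lie below all 4 Leydig cell genes.

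Other cell types were checked with marker lists, and none of their genes was called along age or between 3M and 18M by edgeR. Sertoli cell markers (7 genes) summed to 135 to 143 CPM at 3M and 134 to 142 at 18M, macrophage markers (5) to 39.7 to 44.2 and 34.8 to 41.3, peritubular markers (3) to 62.4 to 75.8 and 46.9 to 65.7, and endothelial markers (4) to 30.3 to 33.4 and 27.8 to 31.2. Spermatogonial markers (4) summed to 44.5 to 47.5 CPM at 3M and 36.5 to 44.6 at 18M, spermatocyte markers (4) to 818 to 889 and 823 to 842, and spermatid markers (5) to 12279 to 13618 and 12680 to 15295. In each of these lists the sums of the 3M and 18M mice overlapped, but not every single gene did. All 18M mice were below all 3M mice in 1 Sertoli (Fshr), 1 peritubular (Myh11) and 1 endothelial marker (Pecam1), beside 9.86% of all genes tested. They were above in 1 spermatid marker (Acrv1), beside 9.44%. The macrophage, spermatogonial and spermatocyte lists held no gene of either kind. DESeq2 called Acrv1 among the spermatid markers and Amy1 of the salivary list along age.

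The partners of the kallikreins were mostly not called. Of 16 genes of the kinin pathway, 15 were tested along age, 1 fell and none rose by edgeR. It was Ece1, an endothelin-converting enzyme that also degrades bradykinin, at 14.8 ± 1 CPM at 3M and 9.92 ± 1.09 at 18M (slope -0.04 log2 per month, adjusted p = 0.0228). Its call was lost without mouse 1 or 2 of 3M, mouse 2 of 6M, or mouse 2 or 3 of 18M (adjusted p of 0.0567 to 0.0999), and with reference transcripts alone the slope was 0.32 and not called. The kininogen genes, the source of kinins, were low, with Kng2 at 0.290 ± 0.104 CPM at 3M and 0.549 ± 0.243 at 18M and Kng1 at 0.0525 and 0.103. The kinin receptors Bdkrb1 and Bdkrb2 were below 1 CPM at all ages in the mean over the libraries, at 0.501 and 0.427 CPM. Ace, the kininase of the testis with a germ cell form of its own, was at 599 ± 37.6 CPM at 3M and 619 ± 15.8 at 18M. Of the 15 tested genes of this list, 5 had p of at most 0.05 along age before adjustment (edgeR), beside 15.3% of all genes tested. All 18M mice were below all 3M mice in 3 of them and above in 1, beside 9.86% and 9.44% of all genes tested.

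Of 19 protease inhibitors, 15 could be tested along age and none was called. All 18M mice were below all 3M mice in 2 of the 15 and above in 0, beside 9.86% and 9.44% of all genes tested. Spink2, an acrosomal Kazal-type inhibitor, was at 259 ± 13.3 CPM at 3M and 271 ± 12 at 18M, Serpinb6a at 129 ± 13.1 and 133 ± 18.7, and Serpina5, the protein C inhibitor, which inhibits tissue kallikrein, at 71.6 ± 1.89 and 76.3 ± 9.29. None of 9 tested genes of 11 substrates and receptors was called. Among these, Ren1, at 0.061 ± 0.053 CPM at 3M and 0.440 ± 0.23 at 18M, was higher without overlap. It rested on 175 reads, with 2 of the 12 libraries at 0 (adjusted p = 0.179 along age, edgeR). Egfr, at 3.25 ± 0.221 and 2.42 ± 0.469, was lower without overlap. These were 1 higher and 1 lower of the 9 tested genes, beside 9.44% and 9.86% of all genes tested. Before adjustment, p along age (edgeR) was at most 0.05 in 2 of the 9. The same held for 1 of the 15 inhibitors and 2 of the 6 androgen-responsive genes below, beside 15.3% of all genes tested. Agt, angiotensinogen, was at 154 ± 20.6 CPM at 3M and 199 ± 46 at 18M, the nerve growth factor receptor Ngfr at 24.8 ± 1.61 and 23.8 ± 0.357, and the angiotensin receptor Agtr1a at 18.1 ± 0.919 and 20.2 ± 1.51. Of 6 androgen-responsive genes of the testis, none was called, with Cldn3 at 51.7 ± 3.14 CPM at 3M and 61.3 ± 5.15 at 18M, Tubb3 at 33.9 ± 3.36 and 32.7 ± 2.64, and Eppin at 21.3 ± 2.81 and 14.1 ± 7.53. All 18M mice were above all 3M mice in 1 of the 6 (Cldn3) and below in 1, beside the same shares of all genes tested (9.44% and 9.86%).

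The genes with the most similar pattern over the 12 libraries were sought among 20344 genes and loci outside the Klk1 cluster with a mean of 1 CPM or more. For the sum of the 8 genes these included Zdhhc17 (r = 0.878), Rapgef4 (0.875), the locus MSTRG.20660 (0.870), Alpl (0.857), Dnaja3 (0.853), the locus MSTRG.19655 (0.839), Nos3 (0.838), 4930546K05Rik (0.833) and Wipf1 (0.828). For Klk1b21 the 3 nearest were Ephx1 (r = 0.945), Cyp17a1 (0.944) and Col1a2 (0.944), for Klk1b24 Ggt5 (0.952), Cyp17a1 (0.933) and Ephx1 (0.923), and for Klk1b27 Ggt5 (0.944), Col1a2 (0.938) and Itih2 (0.934). Ephx1 was at 60.6 ± 2.77 CPM at 3M and 28.2 ± 8.5 at 18M, and Ggt5 at 1.64 ± 0.118 and 0.647 ± 0.0529.

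For Klk1b22 the nearest were Rapgef4 (r = 0.907) and the loci MSTRG.9488 (0.904) and MSTRG.19634 (0.886), and for Klk1b16 the locus MSTRG.18613 (0.909), Glb1l2 (0.868) and Adck3 (0.854). For the genes that overlapped between 3M and 18M in summed reads they were Col23a1, a transcript listed on the opposite strand at Zic5 and Tbcb for Klk1 (0.916 to 0.931), Tti2, Olfr128 and an intronic transcript of Tmem132d for Klk1b8 (0.916 to 0.937), and Mydgf, the locus MSTRG.21073 and Vps28 for Klk1b26 (0.915 to 0.929). These are the highest of many correlations over 12 points that share age groups.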

How the data were processed

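Total RNA libraries of 12 testes were analysed, 3 per age, grouped by their labels. Alignment by the authors used HISAT2 and the mm10 build, and transcripts were assembled by StringTie 1.3.3b. The deposited values are estimated counts, which the authors derived from coverage, and they hold whole numbers only. The deposited FPKM values were scaled by the authors to length and library. The deposited assemblies give a coverage signal per exon.

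Counts of transcripts of class = (reference match), c (contained), j (shared junction) and o (other overlap on the same strand) were summed per gene. The quasi-likelihood test of edgeR 4.0.16 (R 4.3.3, TMM, filterByExpr) fitted the slope on age over 12 libraries, and 3M against 18M over 6, with Benjamini-Hochberg adjustment over all genes tested. The limit was 0.05 for the adjusted p-value, joined for the comparison of 3M with 18M by a size limit of 1 for log2 fold changes. DESeq2 1.42.0 was an alternative. Both fits were tested on simulated data. Depth was 50924104 to 71803379 reads per library. The p-values measure the spread between these samples. Same-numbered mice were not paired, since deviations of same-numbered libraries correlated at -0.0814 to 0.0711. Named are all members, other kallikreins with reads, in each other list the genes called or otherwise the 3 highest in mean CPM, and the genes nearest in pattern (10 for the sum, 1 of them not reported here, and 3 for each member). Further genes of the Leydig, kinin, substrate and marker lists, among them Acrv1 and Amy1, and the locus MSTRG.18224 were named after their values were seen. The members and lists were chosen with earlier results of these data known.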

Additional observations from a re-analysis of the deposited data

How the results depend on the processing

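The summed level of the 8 kallikreins (log2 -0.74 from 3M to 18M) moved by less than the spread of the mice under other scalings, pseudocounts, FPKM and medians, and lay between -0.81 and -0.68 when 1 library was left out. It was -3.16 when only reference transcripts (class =) were counted, where Klk1b8 was at -7.96. Klk1b24 was at -3.09, and at -1.99 with all reads of transcripts joined to Klk1b3, which also hold exons of Klk1b3. In the coverage of exons 1 to 3, which includes these transcripts, Klk1b24 was at -3.19. The number of genes called along age was 45, and it was 567 with DESeq2, 15 with reference transcripts alone, and 13 (without mouse 3 of 18M) to 115 (without mouse 1 of 18M) when 1 library was left out. Between 3M and 18M the number was 13, and it was 54 with DESeq2, 24 with reference transcripts alone, 22 with all 12 libraries in the fit, and 15 to 30 when 1 library was left out. With the mouse number as a block, 23 genes were called along age, the 4 kallikreins among them, and 0 between 3M and 18M (1966 at p of at most 0.05 before adjustment), while 3 of 12 libraries correlated best with their own number, so that the numbers do not pair the samples. In the genes around the cluster, 0 were called along age and 1 with DESeq2. The slope of Ece1 turned to 0.315 with reference transcripts alone, where Cyp11a1 lost its call. The causes were not tested. Few reads limit Klk1b22 and Klk1b16 at 18M.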
